A study of Mus musculus with 16 samples.

Results

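Of 36 mouse genes for the uptake, binding, activation, mitochondrial import and oxidation of fatty acids, their synthesis and release from stored fat, and the peroxisome proliferator-activated receptors (PPARs), 33 were measured well enough to test in HL-1 atrial cardiomyocytes. The genes were taken by name, each through its brightest probe, and the 33 stand among 17771 genes tested in all. None of the 33 passed the test between treatments as the arrays are labelled. Per1, a glucocorticoid receptor target, was high on the arrays numbered 4 and low on those numbered 3 of every label, and between these Cd36 and Lpin1 were 1.44-fold and 1.43-fold higher on number 4, while the enzymes of beta-oxidation differed by -0.11 to 0.08 log2 units. Lpin1 overlapped widely between all arrays with high and with low Per1, and differed by -0.04 on slide 1, where Per1 differs too. Acsl1 and Fabp4 were, with Cd36, the members whose levels did not overlap between the 8 arrays with high and the 8 with low Per1. Over all genes, 4.09% did not overlap between these arrays. Ppargc1b, the coactivator PGC-1 beta, lay lower on most arrays with high Per1.

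Fatty acids are the main fuel of the adult heart. Lipoprotein lipase (Lpl) frees them from circulating triglyceride, CD36 and the transport protein of Slc27a1 take them into the cell, binding proteins (Fabp3, Fabp4) carry them, and acyl-CoA synthetase (Acsl1) activates them. Carnitine palmitoyltransferases (Cpt1a, Cpt1b, Cpt2) and the carnitine-acylcarnitine carrier (Slc25a20) bring the acyl groups into mitochondria, where beta-oxidation shortens them. PPARs are nuclear receptors that bind fatty acids and, with the coactivators PGC-1 alpha (Ppargc1a) and PGC-1 beta (Ppargc1b), switch on many of these genes.

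The study, on antagonism between glucocorticoids and estrogen, treated HL-1 cells for 6 h. HL-1 is an immortalised mouse atrial cardiomyocyte line, labelled female here and grown in Claycomb medium, so all groups are cultures of 1 line. The groups were vehicle (PBS), 100 nM dexamethasone (Dex, a synthetic glucocorticoid), 10 nM estradiol (E2), and both together (Dex+E2). Each had 4 one-colour Agilent arrays, numbered 1 to 4, and the series design states 4 independent experiments. A level is the log2 of a probe's processed signal minus the log2 of the 75th percentile of its array, so 0 is the 75th percentile and 1 unit is a 2-fold change. Levels of different genes come from different probes and are not set against each other.

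The 16 arrays had between 58.6% and 65.6% of their probes well above background and 75th percentiles of 402 to 557 intensity units, and their number limits the precision of every comparison. Each of 4 slides held 2 labels, so that slide 1 had Vehicle 1 and 2 with Dex 1 and 2, and the arrays numbered 3 and 4 of any label shared a slide. Position on the slide and label cannot be told apart within a slide. Per1 was at 1.75 to 1.99 on 8 arrays and at -1.29 to -0.75 on the other 8. Vehicle 4 and E2 4, labelled as having no Dex, were among the high arrays, and Dex 3 and Dex+E2 3, labelled as having Dex, were among the low ones. All arrays numbered 4 were thus Per1-high and all numbered 3 Per1-low, and groups are therefore written below as arrays labelled with a treatment. Array 3 sat at position 1 and array 4 at position 2 for Vehicle, Dex and E2, and at positions 3 and 4 for Dex+E2. Number, position and Per1 level therefore cannot be told apart between the arrays numbered 3 and 4.

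The arrays carried the markers of the labelled cell type. Of 14 atrial cardiomyocyte markers, 13 were well above background on all 16 arrays, Tnni3 being the exception. Fabp4, Cd36 and Lpl are also genes of adipocytes and of vessel walls. Of 6 adipocyte markers with a probe, Adipoq, Plin1, Lep and Cfd were above background on no array and the other two on only some, and the summed marker level was 0.0184 to 0.10 times the 75th percentile. Of 7 endothelial markers, Pecam1, Cdh5 and Tie1 were above background on no array, while Kdr and Egfl7 were on all. The summed endothelial level was 3.48 to 4.44 on the arrays numbered 3 and 4.51 to 4.69 on those numbered 4, and Kdr, the VEGF receptor, was itself higher on the latter by 0.78 ± 0.07 (SE, adjusted p = 0.00338). The summed level of 7 fibroblast markers was 33.5 to 37.1 on the arrays numbered 3 and 29.0 to 32.7 on those numbered 4. All 4 smooth muscle markers (Myh11, Acta2, Tagln and Cnn1) were above background on all 16 arrays, with a summed level of 402 to 424 on the arrays numbered 3 and 384 to 462 on those numbered 4. Of 7 macrophage markers, Ptprc, Adgre1, Lyz2 and Itgam were above background on no array, and Cd68 was on all. Their summed level was 0.092 to 0.123 on the arrays numbered 3 and 0.082 to 0.097 on those numbered 4. The part of these marker shifts in the results below was not tested. In such bulk samples, fewer cells of a type and less RNA per cell cannot be told apart.

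Between the treatments as labelled, no fatty acid or PPAR gene was called. Each treatment was set against Vehicle, the combination against either hormone alone, and the interaction of both hormones was tested, 6 comparisons in all. Called means a limma p-value under 0.05 after Benjamini-Hochberg adjustment over all genes, and 0% of all genes were called in each of the 6. At an unadjusted p under 0.05, Dex against Vehicle gave 3 of the 33 members, beside 10.9% of all genes. E2 against Vehicle gave 3, beside 3.84%, and Dex+E2 against Vehicle gave 1, beside 5.57%. Dex+E2 against Dex gave 1, beside 3.19%, Dex+E2 against E2 gave 3, beside 4.02%, and the interaction gave 2, beside 3.72%.

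The member with the smallest p in these comparisons was Ppargc1a, whose coactivator drives mitochondrial and fatty acid genes. Its level was 3.09, 3.27, 2.87 and 3.09 on the arrays labelled Vehicle, and 3.02, 2.95, 2.52 and 2.59 on those labelled Dex. It was 2.95, 2.48, 2.67 and 2.91 on the arrays labelled E2, and 3.16, 3.16, 2.77 and 3.10 on those labelled Dex+E2. The means with Dex alone (2.77 ± 0.25 SD, n = 4) and E2 alone (2.75 ± 0.22) thus lay below those of Vehicle (3.08 ± 0.16) and Dex+E2 (3.05 ± 0.19), with overlapping arrays. Its log2 difference was -0.31 for Dex against Vehicle (adjusted p = 0.451) and -0.33 for E2 against Vehicle (adjusted p = 0.979), and its interaction was 0.61 (95% interval 0.19 to 1.02, unadjusted p = 0.00693, adjusted p = 0.999). Within slide 3, which holds Dex 3 and 4 with Dex+E2 1 and 2, it was higher under Dex+E2 by 0.60 ± 0.08 (SE, adjusted p = 0.408). Of these arrays, Dex 3 had low Per1 and the others had high Per1.

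Ppara, the PPAR best known from the oxidising tissues, was at 0.55, 0.71, 0.65 and 0.66 on the arrays labelled Vehicle and at 0.34, 0.44, 0.48 and 0.59 on those labelled E2. These 2 sets of arrays overlapped, and the difference of -0.18 ± 0.06 (SE) missed the threshold (adjusted p = 0.979). Slc27a1, which encodes the fatty acid transport protein FATP1, was at -1.93, -1.98, -2.01 and -1.99 under Vehicle and at -1.77, -1.70, -1.89 and -1.65 under E2. Its arrays did not overlap between these labels, and the difference of 0.23 ± 0.08 did not pass either (adjusted p = 0.979). The 8 beta-oxidation enzymes differed by -0.06 to 0.09 for Dex and by -0.02 to 0.06 for E2 against Vehicle, with 95% intervals that together spanned -0.29 to 0.32 and -0.23 to 0.28.

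Arrays numbered 4 were compared with those numbered 3 in 4 pairs, 1 per label, each pair sharing its label and slide. The comparison was chosen with the Per1 levels of these arrays known, so genes that follow Per1 had to differ in it. If the numbers stand for the 4 independent experiments of the series design, a single experiment is set against another. The SE and p-values of this comparison then measure spread between labels and not between experiments. Cd36 and Lpin1, both higher on the arrays numbered 4, were the 2 of 33 members called (6.06%), beside 3.11% of all genes, 1.6% higher and 1.5% lower. At an unadjusted p under 0.05 there were 11 members (33.3%), beside 16.2% of all genes. The members' median difference was 0.03 and that of all genes -0.04, and 18 of the 33 were positive beside 38.0% of all genes. By role, 5 of the 7 uptake and activation genes, 3 of the 4 PPAR and coactivator genes and none of the 8 beta-oxidation enzymes had an unadjusted p under 0.05. Neither call held without the Dex pair, the E2 pair or the Dex+E2 pair, each of which left 0 members called, while leaving out the Vehicle pair left both. The 552 calls over all genes fell with them, to 154, 153 and 191, and were 570 without the Vehicle pair.

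**Figure D1:**
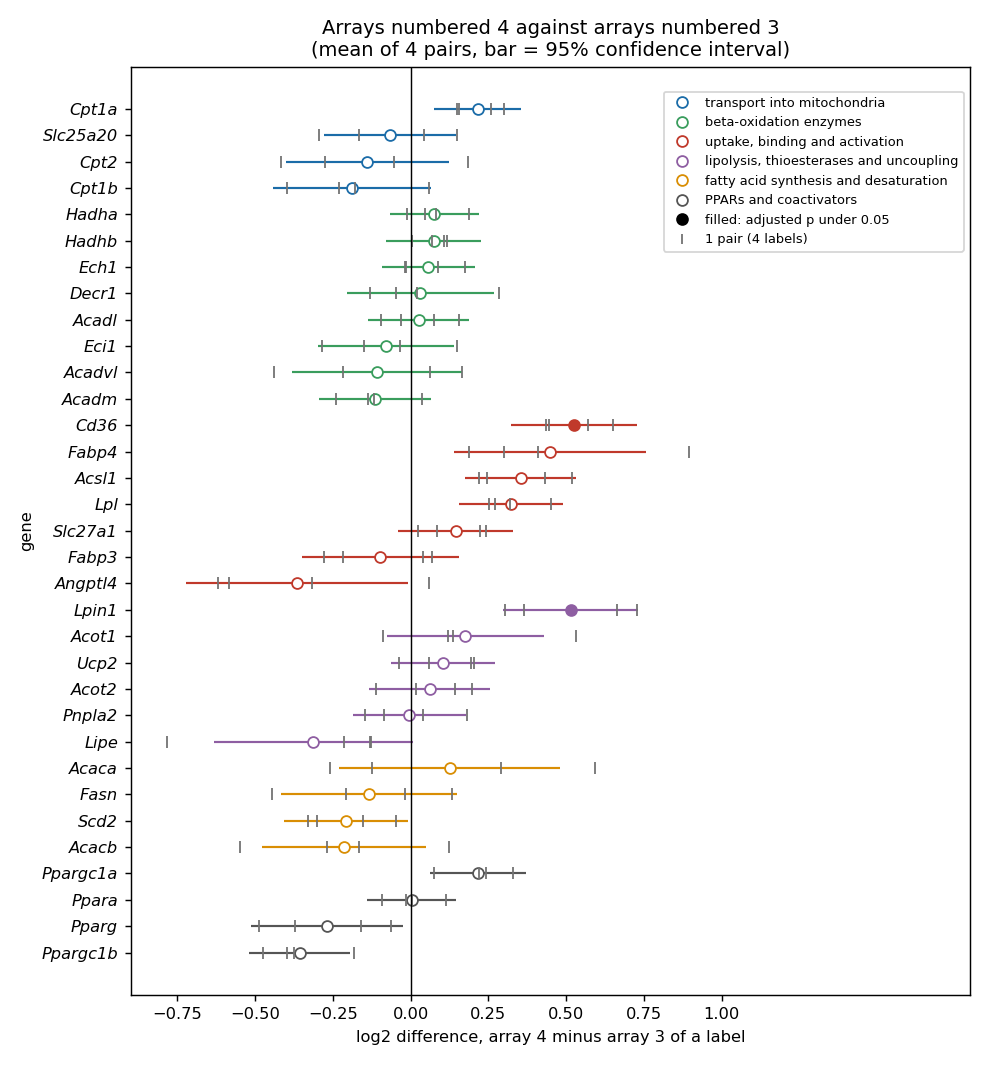
Log2 differences of the 33 measured genes between arrays numbered 4 and 3, grouped by role, with circles for the mean of 4 pairs, horizontal bars for its 95% confidence interval and ticks for single pairs. Cd36 (0.53) and Lpin1 (0.51) are filled as called, and the beta-oxidation enzymes lie between -0.11 and 0.08.

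Among the genes of uptake, Cd36, the fatty acid translocase of the cell surface, had the smallest p. On the arrays numbered 3 its level was -2.84 under Vehicle, -2.78 under Dex, -2.77 under E2 and -2.83 under Dex+E2, and on those numbered 4 it was -2.19, -2.34, -2.33 and -2.25 in the same order. Arrays 1 and 2 were at -2.77 and -2.76 under Vehicle, -2.24 and -2.13 under Dex, -2.88 and -2.67 under E2, and -2.35 and -2.35 under Dex+E2. Every array numbered 4 was above every array numbered 3, and the arrays numbered 1 and 2 lay with the former where labelled Dex or Dex+E2 and with the latter otherwise. The difference between numbers 4 and 3 was 0.53 ± 0.08 (SE, 4 pairs, adjusted p = 0.0299), or 44.0% more signal. Without the Dex, E2 or Dex+E2 pair it was 0.56, 0.55 and 0.51 with adjusted p of 0.152, 0.119 and 0.149. With a normexp background correction in place of Agilent's own it was -0.10 (adjusted p = 0.732). The fitted background mean of that correction was negative on every array, down to -747 on E2 1, and to -654 on Dex+E2 4 among the arrays numbered 3 and 4. For E2 against Vehicle, a different comparison, the correction put 11687 of 17771 genes at an unadjusted p under 0.05, beside 682 without it. Between numbers 4 and 3 it put 1606 genes there, beside 2873 without it, and called 515, beside 552. Cd36 has 1 probe here and spans chromosome 5, 17781690 to 17888959 (GRCm38.p6).

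Promoters are shown for Cd36, Acsl1, Lpin1 and Cpt1a, 4 of the 6 members with the smallest p in this comparison. Ppargc1b, whose chromosome was left out of the choice of promoters, and Lpl, which has no window in the promoter set, are not shown. They are the 250 bases before an annotated start, from RefSeq (GRCm38.p6), in the direction of transcription. The windows of Cd36, Lpin1 and Cpt1a lie inside the spans given for these genes, so that start is not the outermost one. Capitals mark GC boxes (GGGCGG or its complement CCGCCC) and CCAAT boxes (CCAAT or ATTGG), which are common promoter motifs and do not overlap each other here. A GC box occurs in 32.7% and a CCAAT box in 33.8% of 32851 such windows. The window of Cd36, chr5:17835897-17836146 on the minus strand, has 2 GC boxes within a repeated stretch and 1 CCAAT box in 43.2% G+C.
Cd36: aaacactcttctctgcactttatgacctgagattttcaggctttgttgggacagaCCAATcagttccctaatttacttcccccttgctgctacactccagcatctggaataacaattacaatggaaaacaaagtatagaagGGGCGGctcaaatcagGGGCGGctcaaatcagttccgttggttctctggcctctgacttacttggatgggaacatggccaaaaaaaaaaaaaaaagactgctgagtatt

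Acsl1 encodes the acyl-CoA synthetase that commits long fatty acids to metabolism, on chromosome 8, 46471037 to 46536051. Its level on the arrays numbered 3 was 3.14 under Vehicle, 3.34 under Dex, 3.31 under E2 and 3.42 under Dex+E2, and on those numbered 4 it was 3.66, 3.59, 3.74 and 3.64. Those numbered 1 and 2 were at 3.25 and 3.03 under Vehicle, 3.77 and 3.68 under Dex, 3.06 and 3.21 under E2, and 3.83 and 3.86 under Dex+E2. All arrays numbered 4 were again above all those numbered 3. The difference of 0.35 ± 0.07 (SE) missed the threshold (adjusted p = 0.0697). Its other probes gave 0.59 (adjusted p = 0.0234) and 0.71 (adjusted p = 0.0507), and with quantile normalisation the main probe gave 0.39 (adjusted p = 0.00470).

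The RefSeq table gives 2 starts for Acsl1, whose windows differ in base composition. The upstream one, chr8:46470787-46471036 on the plus strand, has 72.0% G+C and 4 GC boxes. The downstream one, chr8:46490716-46490965, has 48.4% G+C, no GC box and 2 CCAAT boxes on the opposite strand.
Acsl1 upstream: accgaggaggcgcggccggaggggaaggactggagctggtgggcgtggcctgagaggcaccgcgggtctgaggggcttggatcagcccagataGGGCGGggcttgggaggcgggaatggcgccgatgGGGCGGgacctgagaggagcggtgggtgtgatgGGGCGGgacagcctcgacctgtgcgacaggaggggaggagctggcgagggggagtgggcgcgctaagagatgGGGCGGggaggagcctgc
Acsl1 downstream: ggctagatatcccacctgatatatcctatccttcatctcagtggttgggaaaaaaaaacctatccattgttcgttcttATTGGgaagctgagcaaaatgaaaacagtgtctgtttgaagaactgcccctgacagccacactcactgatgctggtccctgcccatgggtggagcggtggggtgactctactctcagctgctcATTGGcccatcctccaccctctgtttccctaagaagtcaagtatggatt

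Lpl, the lipase that works at the vessel wall, lay on chromosome 8, 68880555 to 68906932. It was at 4.48, 4.57, 4.53 and 4.50 on the arrays numbered 3 and at 4.93, 4.89, 4.78 and 4.77 on those numbered 4, in the order Vehicle, Dex, E2 and Dex+E2. Arrays 1 and 2 were at 4.73 and 4.91 under Vehicle, 4.96 and 5.02 under Dex, 4.94 and 4.61 under E2, and 4.97 and 4.94 under Dex+E2. The arrays numbered 3 and 4 did not overlap, but Vehicle 2 and E2 1, with low Per1, were as high as the arrays with high Per1. The difference of 0.32 ± 0.07 (SE) had an adjusted p of 0.0717, and the other probe of Lpl gave 0.44 (adjusted p = 0.0225).

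Fabp4, a fatty acid binding protein best known from adipocytes and capillaries, was at -2.37, -2.05, -2.02 and -2.17 on the arrays numbered 3. It was at -1.47, -1.64, -1.83 and -1.87 on those numbered 4, so the numbers did not overlap. The remaining arrays, 1 and 2, were at -2.34 and -2.85 under Vehicle, -1.83 and -1.90 under Dex, -2.47 and -2.47 under E2, and -1.50 and -1.34 under Dex+E2. The pair differed by 0.89 under Vehicle and by 0.19 to 0.41 under the other labels, and the mean of 0.45 ± 0.13 (SE) had an adjusted p of 0.152. With the normexp correction, whose negative background means are given for Cd36, the difference was -0.04 (adjusted p = 0.893).

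The other 3 uptake genes were not called. Fabp3, the binding protein of heart muscle, differed by -0.10 ± 0.10 and ranged only from 6.83 to 7.44 over the 16 arrays. Slc27a1 differed by 0.14 ± 0.08 and was higher on number 4 in all 4 pairs. Angptl4, a secreted inhibitor of Lpl and a familiar PPAR target, differed by -0.37 ± 0.15 (adjusted p = 0.298) and was lower in 3 of 4 pairs. The arrays labelled Vehicle were at -3.06, -1.98, -3.21 and -3.82, and the first 3 of these were the highest of all 16, Vehicle 2 well above the rest.

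Lpin1 encodes lipin 1, a phosphatidate phosphatase that also acts as a nuclear coactivator with PGC-1 alpha and PPAR alpha. The gene spans chromosome 12, 16535669 to 16653903. On the arrays numbered 3 its level was 0.89 under Vehicle, 0.49 under Dex, 0.77 under E2 and 1.04 under Dex+E2, and on those numbered 4 it was 1.26, 1.21, 1.43 and 1.34. Arrays 1 and 2 were at 1.34 and 1.95 under Vehicle, 1.61 and 1.61 under Dex, 1.19 and 1.16 under E2, and 1.46 and 1.55 under Dex+E2. All arrays numbered 3 were thus the lowest of the 16, and Vehicle 2, with low Per1, was the highest. The difference between numbers 4 and 3 was 0.51 ± 0.09 (SE, adjusted p = 0.0397), and it was 0.39 and 0.29 by the gene's other probes (adjusted p = 0.0553 and 0.175). Without the Dex, E2 or Dex+E2 pair the adjusted p was 0.179, 0.166 and 0.0771, and without a mean trend in the variance it was 0.0917. The window before its annotated start, chr12:16610967-16611216 on the minus strand, lies inside this span and has 54.8% G+C and neither box.
Lpin1: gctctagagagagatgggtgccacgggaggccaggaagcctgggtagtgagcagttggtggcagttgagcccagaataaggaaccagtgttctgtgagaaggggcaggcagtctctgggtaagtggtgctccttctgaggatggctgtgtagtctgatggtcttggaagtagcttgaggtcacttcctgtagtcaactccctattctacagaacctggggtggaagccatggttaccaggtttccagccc

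The genes that release or hydrolyse stored fat and acyl-CoA moved less. Pnpla2, the adipose triglyceride lipase, differed by -0.00 ± 0.07 between numbers 4 and 3, and Lipe, the hormone-sensitive lipase, by -0.31 ± 0.13 (adjusted p = 0.319), lower on number 4 in all 4 pairs and at -0.78 in the Vehicle pair. The thioesterases Acot1 and Acot2, which split acyl-CoA, differed by 0.18 ± 0.10 and 0.06 ± 0.08. These are neighbouring paralogs of nearly the same sequence on chromosome 12, so their probes may share signal. Ucp2, an uncoupling protein of the inner mitochondrial membrane, differed by 0.10 ± 0.07. Ucp3, its relative in muscle, was above background on 0 of 16 arrays and was not tested.

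Of the 4 genes of mitochondrial import, Cpt1a had the smallest p. It encodes the liver-type carnitine palmitoyltransferase of the outer membrane, on chromosome 19, 3322326 to 3385735. Its level was 2.61, 2.63, 2.67 and 2.64 on the arrays numbered 3 and 2.91, 2.78, 2.93 and 2.79 on those numbered 4, in the order Vehicle, Dex, E2 and Dex+E2. Arrays 1 and 2 were at 2.91 and 3.18 under Vehicle, 3.12 and 3.14 under Dex, 2.74 and 2.77 under E2, and 2.88 and 3.01 under Dex+E2. The arrays numbered 3 were closely spaced and the lowest of all 16, and the difference was 0.22 ± 0.06 (SE, adjusted p = 0.134). In the authors' deposited log2 values the same probe gave -0.11 (adjusted p = 0.851), which turns the direction.

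The window of Cpt1a, chr19:3323051-3323300 on the plus strand, has 59.6% G+C, 2 GC boxes on the opposite strand and 1 CCAAT box, all near its end.
Cpt1a: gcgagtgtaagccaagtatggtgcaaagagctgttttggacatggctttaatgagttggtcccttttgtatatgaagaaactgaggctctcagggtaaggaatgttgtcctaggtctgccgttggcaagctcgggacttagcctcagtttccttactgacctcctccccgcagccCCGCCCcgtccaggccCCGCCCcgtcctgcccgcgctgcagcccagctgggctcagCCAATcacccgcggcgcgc

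Cpt1b, the muscle isoform, differed by -0.19 ± 0.10 (adjusted p = 0.448), Cpt2 of the inner membrane by -0.14 ± 0.11 and the carrier Slc25a20 by -0.07 ± 0.09. Each of these 3 was lower on number 4 in 2 or 3 of the 4 pairs. The other probe of Cpt1b gave 0.09 ± 0.14, so its direction depends on the probe.

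The beta-oxidation enzymes were the steadiest group. Their levels spanned 0.31 (Acadl) to 0.57 (Decr1) log2 units over the 16 arrays, with SDs within a label of 0.03 to 0.21. Between numbers 4 and 3 the acyl-CoA dehydrogenases for medium, long and very long chains, Acadm, Acadl and Acadvl, differed by -0.11 ± 0.07, 0.03 ± 0.07 and -0.11 ± 0.11. Hadha and Hadhb, the subunits of the mitochondrial trifunctional protein, differed by 0.08 ± 0.06 and 0.07 ± 0.06. The isomerases Ech1 and Eci1 and the reductase Decr1, which process unsaturated chains, differed by 0.06 ± 0.06, -0.08 ± 0.09 and 0.03 ± 0.10. The lowest of the 8 adjusted p-values was 0.512, and the 95% intervals of the 8 genes together spanned -0.38 to 0.27. Acadvl rests on 3 arrays under Vehicle, since its spot on Vehicle 1 was an outlier.

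Of the genes of fatty acid synthesis and desaturation none was called. Acaca and Acacb, the acetyl-CoA carboxylases that make malonyl-CoA, differed by 0.13 ± 0.15 and -0.21 ± 0.11, and the fatty acid synthase Fasn by -0.13 ± 0.12. The other probes of Acaca gave -0.18, -0.11 and -0.89, so its direction depends on the probe. The other probe of Acacb gave -0.25 ± 0.24, and that of Fasn gave -0.28 ± 0.06 (adjusted p = 0.0895). The desaturase Scd2 differed by -0.21 ± 0.08 (adjusted p = 0.294) and was lower on number 4 in all 4 pairs. Scd1, the other desaturase, was well above background on 7 of 16 arrays and was not tested.

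Ppargc1b, the coactivator PGC-1 beta, lay just outside the threshold in the opposite direction to Cd36. It was at 0.94, 0.72, 0.76 and 0.71 on the arrays numbered 3 and at 0.46, 0.32, 0.38 and 0.52 on those numbered 4, in the order Vehicle, Dex, E2 and Dex+E2. Arrays 1 and 2 were at 0.68 and 0.90 under Vehicle, 0.18 and 0.31 under Dex, 0.91 and 0.49 under E2, and 0.48 and 0.19 under Dex+E2. Numbers 3 and 4 did not overlap, and the difference was -0.36 ± 0.07 (SE, adjusted p = 0.0506), or 1.28-fold lower. Its other probes gave -0.59 and -0.37 (adjusted p = 0.0564 and 0.0545).

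Ppargc1a, whose levels are given above, was higher on number 4 in all 4 pairs, by 0.08 to 0.33, with a mean of 0.22 ± 0.06 (adjusted p = 0.163). Its other probe gave 0.37 (adjusted p = 0.0268). Pparg, the PPAR of fat cells, differed by -0.27 ± 0.10 (adjusted p = 0.264) and was lower in all 4 pairs, while Ppara differed by 0.00 ± 0.06. Ppard was well above background on 4 of 16 arrays and was not tested. Of the 33 members, 13 had 1 sign in all 4 pairs, beside 25.3% of all genes. Of these, 9 were higher and 4 lower on number 4, beside 9.66% and 15.6%.

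Across all 16 arrays the sets with high and low Per1 are described and not tested, since a measured level defines them. Cd36, Acsl1 and Fabp4 were higher on every Per1-high array than on any Per1-low array, and no member was lower without overlap. Of all genes, 4.09% did not overlap between the sets, 2.02% being higher and 2.07% lower. Cd36 was at -2.35 to -2.13 (median -2.29) on the Per1-high arrays and at -2.88 to -2.67 (median -2.77) on the Per1-low ones, a gap of 0.32. Acsl1 was at 3.59 to 3.86 (median 3.71) and 3.03 to 3.42 (median 3.23), and Fabp4 at -1.90 to -1.34 (median -1.74) and -2.85 to -2.02 (median -2.35).

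Ppargc1b and Acot1 overlapped only in part. Ppargc1b was at 0.18 to 0.52 (median 0.35) on the Per1-high and at 0.49 to 0.94 (median 0.74) on the Per1-low arrays, and 7 of the 8 Per1-high arrays were below all the others. Acot1 was at 0.19 to 0.58 (median 0.44) and -0.09 to 0.32 (median 0.14), with 7 Per1-high arrays above all the others. Lpl had medians of 4.94 and 4.59 and Lpin1 of 1.45 and 1.10, with wide overlap in Lpin1, from 1.21 to 1.61 against 0.49 to 1.95. The medians of the 8 beta-oxidation enzymes differed by at most 0.06 between the sets.

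**Figure D2:**
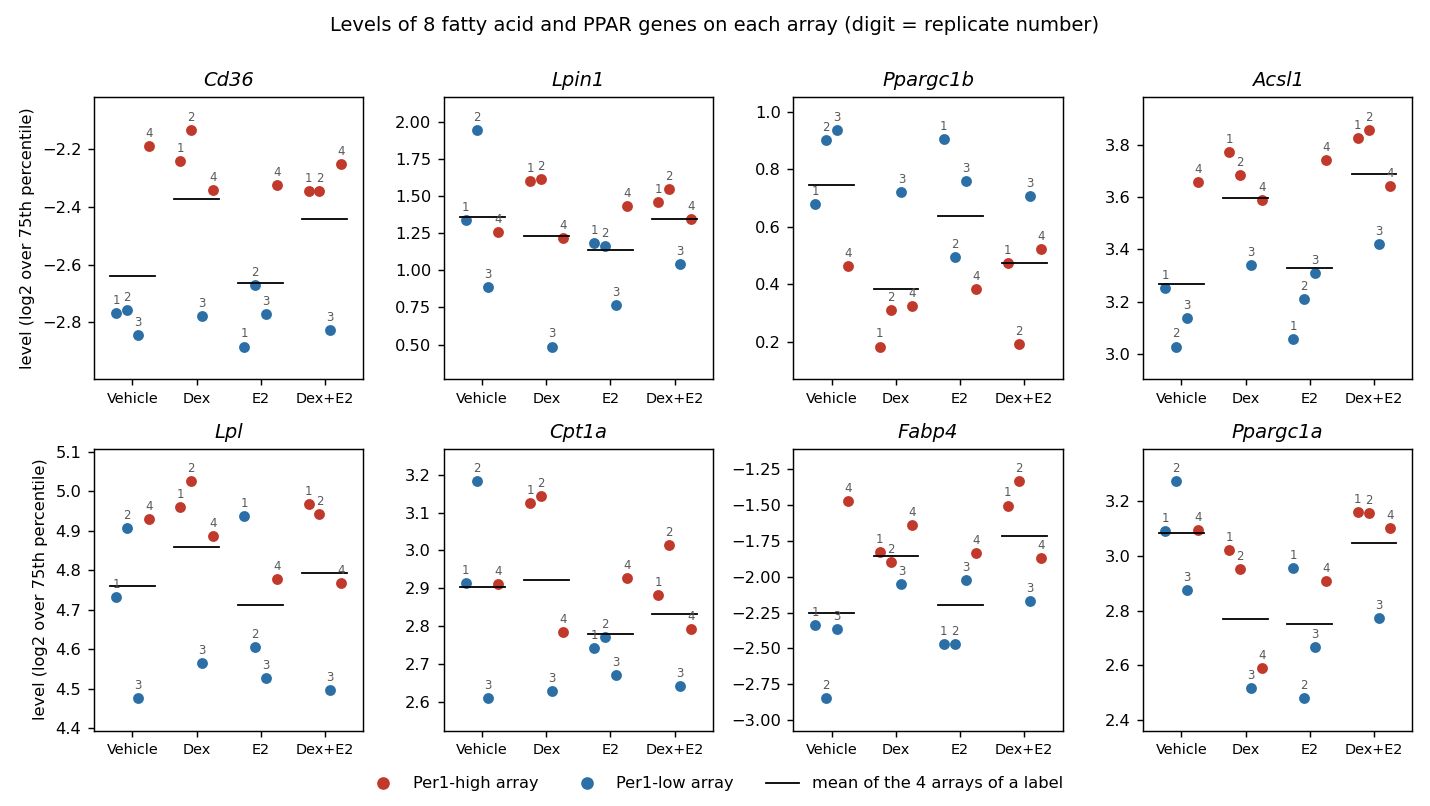
Level (log2 over the array's 75th percentile) of the 8 genes with the smallest p between numbers 4 and 3, by label, with 1 point per array marked with its replicate number and coloured by Per1 set, and lines for label means. Cd36, Fabp4 and Acsl1 separate by colour and not by label, and the arrays numbered 3 are the lowest for Lpin1 and Cpt1a.

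**Figure D3:**
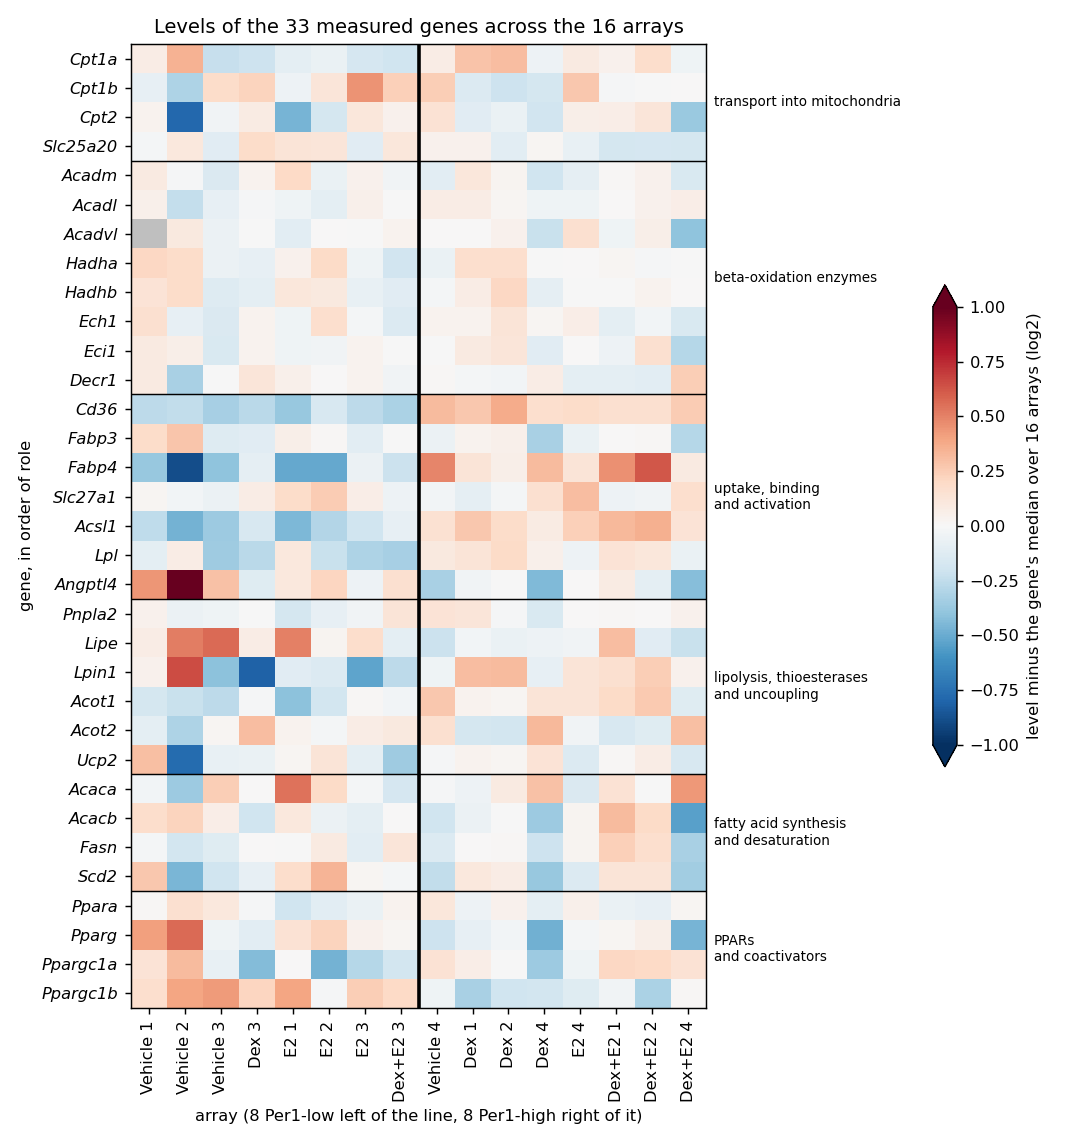
Levels of the 33 measured genes (rows, by role) on the 16 arrays (columns, Per1-low left and Per1-high right of the line), each minus the gene's median, in log2 units from -1 to 1, with the missing value of Acadvl on Vehicle 1 in grey. The rows of Cd36, Fabp4 and Acsl1 change colour at the line, and single arrays stand out in Angptl4, Cpt2 and Ucp2 (Vehicle 2) and Lpin1 (Vehicle 2 and Dex 3).

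Slide 1 gave a comparison that shares no array with numbers 3 and 4, of Dex 1 and 2 against Vehicle 1 and 2, where Per1 follows the labels. No member was called there, beside 0.253% of all genes (0.219% higher and 0.0338% lower), and 9 of 33 (27.3%) had an unadjusted p under 0.05, beside 15.8%. Acsl1 was higher under Dex by 0.59 ± 0.10 (SE, adjusted p = 0.129), Cd36 by 0.57 ± 0.12 (adjusted p = 0.187) and Fabp4 by 0.73 ± 0.20 (adjusted p = 0.256). Ppargc1b differed by -0.54 ± 0.11 (adjusted p = 0.185), Pparg by -0.54 ± 0.12 (adjusted p = 0.201) and Angptl4 by -1.0 ± 0.38 (adjusted p = 0.313). Lpin1, called between numbers 4 and 3, differed by -0.04 ± 0.21 here, with Vehicle 1 at 1.34 and Vehicle 2 at 1.95 on both sides of the 1.61 of both Dex arrays. Vehicle 2 also differed from Vehicle 1 in Angptl4 (-1.98 against -3.06), Cpt2 (3.18 against 4.00) and Ucp2 (-1.40 against -0.33). Without Vehicle 1, 18 members and 6678 of all genes were called, and without Vehicle 2, 6 members and 1520 of all genes. These fits set a single Vehicle array, assumed to vary like the others, against Dex 1 and 2, whose difference is then the only measured spread, so the counts are no support for single genes. Without Dex 1 or Dex 2 the spread is that between the Vehicle arrays, and 0 genes were called.

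Set side by side, the difference on slide 1 had the sign of that between numbers 4 and 3 for 20 of 33 members (60.6%) and for 68.7% of all genes. Across the 33 genes, which are not independent, Pearson's r was 0.70, and across all genes it was 0.47. By rank the members did not stand out, with Spearman's rho of 0.537 across the 33 genes and 0.542 across all genes. The beta-oxidation enzymes differed by -0.07 to 0.14 on slide 1.

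**Figure D4:**
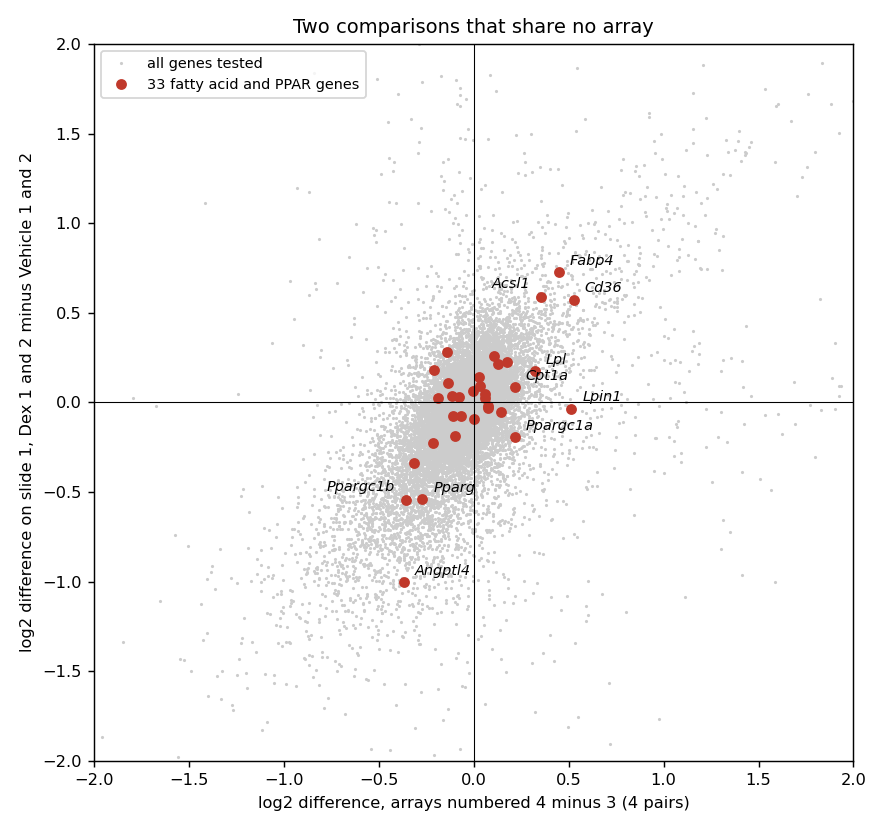
Log2 differences between numbers 4 and 3 (horizontal) and between Dex and Vehicle on slide 1 (vertical) for the 33 measured genes (red) over all 17771 genes tested (grey), of which 160 lie outside the axes. Cd36, Acsl1 and Fabp4 lie upper right, Ppargc1b, Pparg and Angptl4 lower left, and Lpin1 near 0 on the vertical axis.

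The label comparisons were repeated without Vehicle 4, Dex 3, E2 4 and Dex+E2 3, which leaves 3 arrays per label. Since those arrays were left out for their Per1 level, genes that follow Per1 had to differ more, and these values are a description of the arrays kept. Dex against Vehicle then called 3 members, beside 2.43% of all genes (1.34% higher, 1.09% lower): Acsl1 (0.54 ± 0.09 SE, adjusted p = 0.0111), Cd36 (0.55 ± 0.10, adjusted p = 0.0178) and Ppargc1b (-0.57 ± 0.12, adjusted p = 0.0350). Dex+E2 against Vehicle also called 3, beside 2.59% (1.48% higher, 1.11% lower): Acsl1 (0.64 ± 0.09, adjusted p = 0.00409), Fabp4 (0.95 ± 0.19, adjusted p = 0.0203) and Cd36 (0.47 ± 0.10, adjusted p = 0.0360). Dex+E2 against E2 called Acsl1 (0.58 ± 0.09, adjusted p = 0.00704), beside 1.93% (1.26% higher, 0.67% lower), and Cd36 fell just outside (0.46 ± 0.10, adjusted p = 0.0502). At an unadjusted p under 0.05 these gave 8, 8 and 7 members, beside 19.8%, 15.9% and 10.3% of all genes. The first 2 of these comparisons share the Vehicle arrays and the last 2 the Dex+E2 arrays. The interaction, Dex+E2 against Dex, and E2 against Vehicle called 0 members and 0% of all genes, with 1, 0 and 3 members at an unadjusted p under 0.05, beside 4.24%, 2.43% and 5.64%.

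The wider pathway was given by 5 further lists of 105 genes, of which 90 were tested. Between numbers 4 and 3, 2 were called higher and 1 lower, all 3 outside the oxidation and synthesis lists, beside the 3.11% above. Pdk4, a kinase that shuts down glucose oxidation and a known PPAR target, was at 2.58 to 2.80 on the arrays numbered 3 and at 3.24 to 3.45 on those numbered 4, a difference of 0.65 ± 0.09 (SE, adjusted p = 0.0185). Plin5, a coat protein of lipid droplets in oxidising tissues, was at -4.59 to -3.99 and -3.60 to -3.0, and differed by 0.90 ± 0.14 (adjusted p = 0.0288). Vldlr, the receptor for very low density lipoprotein, was at 0.89 to 1.46 and 0.42 to 0.55, and differed by -0.71 ± 0.11 (adjusted p = 0.0264). None of the 3 overlapped between the numbers. The other oxidation genes (0 of 31 called, median -0.03), synthesis genes (0 of 16, median -0.08) and PPAR partners and coregulators (0 of 19, median -0.09) stood beside a median of -0.04 over all genes. On slide 1 none of the 90 was called, with Plin5 at 1.15 ± 0.16 (adjusted p = 0.0937) and Pdk4 at 0.44 ± 0.07 (adjusted p = 0.124).

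The promoter windows, here from 250 bases before to 50 after each start, were searched on both strands for one spelling of the glucocorticoid receptor element (an inverted repeat) and one of the PPAR element (a direct repeat with a single base between). The letters of the first were found in 0.475% and of the second in 0.381% of 32851 windows. Of the member genes, 28 had 34 windows in the table and none held either. This says only that these letters are not in these windows.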

How the data were processed

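Cy3-labelled cRNA of the 16 samples was read on one-colour Agilent arrays, as the labels' protocols describe. The submitters' processing notes name Feature Extraction version 12. The unit of the scanner values is intensity: the deposited processed signal, per the file headers, is linear, and its background was already subtracted by the authors' scanner software. The authors' deposited table of log2 values for these arrays, each with a median of 4.70, served as an alternative. Each of its columns followed the log2 signal of its own array, so its scale is log2 with no centring by gene. The method behind it was not given in the sources used here.

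Control and outlier spots were left out, spots of a probe were averaged, and the log2 level was taken relative to the array's 75th percentile over 41174 probes. Probes were kept where any label had all 4 of its arrays well above background (24453 probes), and the brightest kept probe stood for its gene (17771 genes). Accessions matched RefSeq (GRCm38.p6) for 28223 probes. No spot was saturated. Groups and numbers came from the labels. Comparisons were fitted with limma 3.58.1 (lmFit, eBayes with trend) in R 4.3.3, two-sided, with Benjamini-Hochberg adjustment over all genes. The 6 label comparisons used all 16 arrays, numbers 4 and 3 were compared with label as a block, and slide 1 used its 4 arrays. The fits were tested on simulated data. The members, lists, comparisons and tests were chosen with earlier results of these data known. The 2 box motifs and 1 background correction were chosen after seeing the data. Values on every array are given for the members called between numbers 4 and 3 or on slide 1, filled up to 8 with those of smallest p between the numbers. Other lists name up to 4 called genes each. Alternatives covered the background correction, normalisation, filter, variance trend, blocks, single arrays left out, the deposited values and other probes.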

Additional observations from a re-analysis of the deposited data

Results flagged for a closer look

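Within the 4 arrays of a label, 14 of 131 sets of levels of the measured genes had an array that stood apart by Dixon's ratio at its 95% critical value, where chance alone gives about 6.55 (1 in 20). Dex+E2 3 held 5 of the 14, Dex+E2 4 held 4 and Vehicle 4 held 2.

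In Cd36, Vehicle 4 (-2.19) stood above the other arrays of its label (-2.84 to -2.76), and Dex+E2 3 (-2.83) stood below the others of its own (-2.35 to -2.25). Both arrays have the Per1 level of the opposite kind of label. The same holds for Acot1 on Vehicle 4 (0.58, the others 0.05 to 0.14), and for 4 further genes on Dex+E2 3: Cpt1b (-2.80, the others -3.06 to -3.03), Slc25a20 (0.11, the others -0.19 to -0.17), Hadha (0.66, the others 0.84 to 0.87) and Ppargc1a (2.77, the others 3.10 to 3.16). Cpt1b on Dex 3 (-2.82, the others -3.25 to -3.18) stood above as well.

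On Dex+E2 4, Cpt2 (3.58, the others 4.00 to 4.08), Fabp3 (6.88, the others 7.16 to 7.17) and Pparg (-2.79, the others -2.30 to -2.27) stood below, and Slc27a1 (-1.79, the others -2.01 to -1.99) stood above. Fasn on Dex 4 (6.35, the others 6.56 to 6.57) stood below, and Ech1 on Dex 2 (3.03, the others 2.92 to 2.93) above. The part of the single arrays in these values was not tested.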

How the results depend on the processing

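In the 6 label comparisons no member was called under any alternative or with any single array left out (0 to 0), except without the 4 arrays whose Per1 goes against their label, which gave 3 for Dex against Vehicle, 3 for Dex+E2 against Vehicle and 1 for Dex+E2 against E2. The replicate numbers were not taken as pairing the arrays, since not every same-numbered pair had deviations from the label means correlating over 0.1: 2 of 6 pairs did for number 1, 2 for number 2, 3 for number 3 and all 6 for number 4 (r 0.11 to 0.45), and 9 of 16 arrays correlated best with their own number. The arrays numbered 4 thus deviate together. With the replicate block 0 members and 0 genes were called in each, and the count of all genes at an unadjusted p under 0.05 went from 1933 to 2550 for Dex against Vehicle.

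Between numbers 4 and 3 the 2 called members became 5 with quantile normalisation (all genes from 552 to 741), 3 with the deposited log2 table (669), 3 with probes above background on all 16 arrays (603), 6 with no label block (982), 1 with no trend (359) and 0 with no filter (236), which tests more genes. Leaving out 1 pair gave 0 to 2 (153 to 570). Normexp also called 2 (515), Lpin1 and Ppargc1b, but its fitted background means were -747 to -6.95. On slide 1, leaving out 1 array gave 0 to 18 members, in fits with 1 lone array on a side and the spread of the other 2 alone, and all genes went from 45 to 1 with no trend, 9 with no filter, 80 with normexp and 99 with probes above background on all arrays.

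Of the named members' differences between numbers 4 and 3, normexp turned Cd36 (-0.10) and Fabp4 (-0.035), and the deposited table turned Cpt1a (-0.11). On slide 1, normexp turned Lpl (-0.18) and Cpt1a (-0.25), another probe turned Fabp4 (-0.015, above background on 4 arrays) and Ppargc1a (0.12), and leaving out 1 array gave Lpin1 -0.34 (without Vehicle 1) to 0.27 (without Vehicle 2) and Cpt1a -0.048 (without Vehicle 1) to 0.22 (without Vehicle 2). The cause was not tested. Of 190 alternative values of the named members' differences, 144 kept direction and side of the threshold, 12 lost and 25 gained a call, some of these in the fits with a lone array on slide 1, and 9 turned. The normexp correction planned on mean signals was not run, and median signals were used instead, a choice made after seeing the data. The number of arrays limits all comparisons.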

Other observations

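The members that were not measured well enough to test still have levels. Ppard was well above background on 4 arrays and lay between -6.87 and -4.61, Scd1 on 7 arrays, between -7.46 and -4.96, and Ucp3 on 0, between -8.80 and -7.07. These levels have no use as an order between labels.

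Within the slides that hold a pair of labels, no member was called. Per1 did not follow the labels on slide 3, where Dex 3 was low, or on slide 2, where Vehicle 4 was high. Nor did it on slide 4, where E2 4 was high and Dex+E2 3 was low. On slide 3 the members of smallest p besides Ppargc1a were Acacb, higher on Dex+E2 1 and 2 than on Dex 3 and 4 by 0.54 ± 0.10 (SE, adjusted p = 0.408), and Acot2, which differed by -0.46 ± 0.10 (adjusted p = 0.408). On slide 2, Scd2 was at 5.97 and 6.13 on E2 1 and 2 and at 5.60 and 5.55 on Vehicle 3 and 4, a difference of 0.48 ± 0.10 (adjusted p = 0.605).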
